A study of Mus musculus with 10 samples.

Results

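The cells described here carry transcripts of amacrine interneurons although they were deposited as retinal ganglion cells (RGCs). They were chosen by measured values: a cell is a carrier if it holds at least 1 UMI (1 counted mRNA molecule) each of 2 or more of 5 genes, Gad1, Slc32a1, Slc6a9, Tfap2a and Tfap2b. Of 2871 cells, 356 met that rule (12.4%), 741 held UMIs of 1 of the 5 genes, and 1774 held none of them and serve as the comparison. Every one of the 356 carriers also held UMIs of all 4 genes by which the authors selected RGCs, Rbpms, Slc17a6, Sncg and Tubb3, so these cells have RGC and amacrine transcripts in 1 barcode and are named here only as carriers.

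Amacrine cells are the inhibitory interneurons of the inner retina, and they shape the signals that RGCs send to the brain. Most release GABA or glycine. GABA is made by the decarboxylases encoded by Gad1 and Gad2, both transmitters are loaded into vesicles by the transporter encoded by Slc32a1, glycine is taken up by the transporter encoded by Slc6a9, and the AP-2 transcription factors encoded by Tfap2a and Tfap2b act in amacrine development. In the mm39 assembly Gad1 lies on chromosome 2 at 70383416 to 70432372, Slc32a1 on chromosome 2 at 158452605 to 158464883 and Slc6a9 on chromosome 4 at 117691703 to 117732395. Tfap2a lies on chromosome 13 at 40868778 to 40891852 and Tfap2b on chromosome 1 at 19279138 to 19309069. RGCs release glutamate, which the transporter encoded by Slc17a6 loads into vesicles.

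The mice were wild-type 129S1/SvImJ animals of 12 weeks, said to be of both sexes, and their retinas were either uninjured or taken 2 weeks after optic nerve crush (ONC), which injures RGC axons. RGCs were isolated by binding to plates with antibodies to Thy1, a surface protein (immunopanning), 10 retinas were pooled per batch, and 6000 cells were loaded per batch, so a library is a pool of animals and not 1 animal. There were 6 uninjured and 4 injured libraries. The labels state a depletion of macrophages, and the study's text adds a depletion of amacrine cells.

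Depth differed between samples and between carriers and other cells. Total UMIs in a library ran from 2839693 to 23180399 in the uninjured libraries and were 5934728, 4698799 and 9283089 in injured 1, injured 2 and injured 3/4. Median UMIs per cell were 39796.5 in uninjured carriers against 23831.5 in uninjured cells without the 5 genes, and 24543.5 against 12611.5 in injured cells. A deeper cell meets the rule more easily, so shares of carriers are also given at equal depth and carriers were compared with cells of similar depth. The injured and uninjured carriers of the third comparison, and the shares of cells with a given gene unless said, are at full depth.

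The libraries were not independent in several ways. Injured 3 and injured 4 shared 421 barcodes and were joined as 1 sample, injured 3/4, with each shared barcode counted once, which leaves 9 samples. Of those 421 barcodes, 17 were carriers by their injured 3 counts, 11 by their injured 4 counts and 5 by both, at median depths of 15317 and 11799 UMIs. Among the uninjured carriers, 95.8% to 100% per sample held a Y-linked UMI and at most 0.592% held a UMI of Xist, the RNA that marks the inactive X chromosome of females, although the labels name both sexes. In injured 3/4 the shares in carriers were 91.3% and 0%, whereas injured 1 and 2 held cells of both kinds. UMIs of mCherry, a fluorescent reporter, appeared in 13.8%, 23.1% and 78.3% of the carriers of injured 1, 2 and 3/4 and in 0 uninjured carriers. Uninjured 4 alone supplied 169 of the 356 carriers (47.5%).

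The 5 genes were concentrated in the carriers, as the rule requires, but not to the same degree. Carriers held 6526 of the 7442 UMIs of the 5 genes (87.7%). For Gad1, Slc32a1, Tfap2a and Tfap2b they held 91.8%, 93.5%, 91.7% and 94.9% of all UMIs. Slc6a9 stood apart with 47.2%.

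Slc6a9 lay mostly in carriers in uninjured cells and mostly outside them in injured cells. In uninjured cells 75.5% of its UMIs lay in carriers, and in injured cells 16.0%. Outside the carriers 5.77% of uninjured cells and 24.0% of injured cells held a UMI of Slc6a9. With every cell thinned to 8000 UMIs, the share of all cells with a Slc6a9 UMI was 2.90% ± 2.28 (SD, n = 6) in uninjured and 15.3% ± 2.72 (SD, n = 3) in injured samples, with no overlap between them. Among injured cells that held Gad1, 25.3% also held Slc6a9, against 26.1% of those without Gad1, with the samples pooled. In uninjured cells those shares were 21.1% and 9.50%. At 8000 UMIs the injured samples differed in direction. With any of the other 4 genes, 12.5%, 23.3% and 14.3% of cells held Slc6a9 in injured 1, 2 and 3/4. Without them the shares were 16.1%, 10.9% and 17.9%.

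Gad1 was often found with Slc32a1 and with Tfap2b. Slc6a9 was found in 27.3% of injured cells with Tfap2b and in 25.9% of those without. In uninjured cells these shares were 22.0% and 10.1%. In injured cells Slc32a1 was found in 42.4% of cells with Gad1 and in 1.38% of cells without it. In uninjured cells the shares were 45.7% and 7.03%. Tfap2b was found in 29.3% of injured cells with Gad1 and in 2.39% of those without. The commonest combination among carriers was Gad1, Slc32a1, Tfap2a and Tfap2b without Slc6a9, in 67 carriers, and 36 carriers held all 5 genes.

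Carriers ranged widely in how many molecules of the 5 genes they held. The number of genes held was 2 in 161 carriers, 3 in 79, 4 in 80 and 5 in 36. The median carrier held 7 UMIs of the 5 genes, the highest 295, and 164 carriers (46.1%) held 10 or more. Tfap2b reached 153 UMIs in 1 cell, Gad1 84, Tfap2a 31, Slc32a1 27 and Slc6a9 18. Just inside the rule stood 86 cells with 2 genes at 1 UMI each, of which 26.7% held Gad2, and just outside it stood 628 cells with 1 gene at 1 UMI, of which 17.2% held Gad2, at median depths of 30732.5 and 23598.5 UMIs. The level of Gad2 was lower just inside the rule than just outside it, 0.165 against 0.201 UMIs per 10000, and the RGC selection markers were at 33.7 and 33.8. These levels pool the conditions, with 64 uninjured and 22 injured cells inside and 361 and 267 outside, and were not compared within a condition.

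Gad2, which was not part of the rule, followed the number of rule genes in a cell. In uninjured cells it was found in 14.3% of cells with 0 of the 5 genes, 22.4% with 1, 34.4% with 2, 67.7% with 3, 85.5% with 4 and 96.9% with 5. In injured cells the shares were 9.09%, 14.1%, 46.2%, 94.1%, 94.4% and 100%. Depth rose along the same series, from a median of 23831.5 to 45029.5 UMIs in uninjured cells.

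The RGC selection markers ran the other way. Summed over Rbpms, Slc17a6, Sncg and Tubb3, uninjured cells with 0 of the 5 genes held 38.4 UMIs per 10000, and those with 5 genes held 19.9. In injured cells the levels were 31.5 and 9.20, the latter over 4 cells. The list of 15 other amacrine transcription factors, which contains Pax6 and Meis2, went from 9.48 to 18.3 UMIs per 10000 in uninjured cells and from 6.69 to 21.7 in injured cells. Markers of other classes were also higher at 5 genes than at 0 in most cases. The bipolar list was at 2.38 and 4.57 in uninjured cells. In injured cells it was at 1.15 with 1 gene, 4.88 with 4 and 9.62 with 5, and the Muller list was at 2.24 and 4.40 in uninjured and at 3.55 and 2.85 in injured cells.

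**Figure D1:**
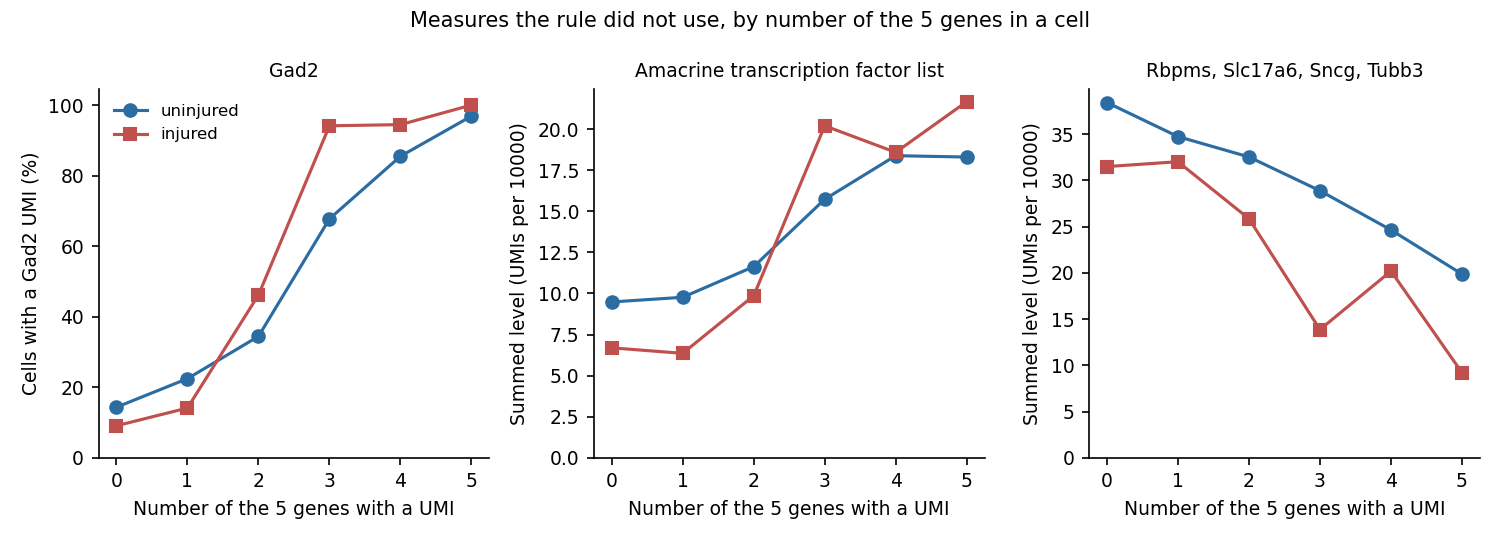
Cells grouped by how many of the 5 genes they hold (x axis, 0 to 5), uninjured in blue and injured in red: the percentage of cells with a Gad2 UMI, the summed level of the amacrine transcription factor list and the summed level of the 4 RGC selection markers (both in UMIs per 10000, all cells of a group pooled). Gad2 climbs from 14.3% to 96.9% in uninjured cells while the RGC markers go from 38.4 to 19.9 UMIs per 10000.

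By their transmitter genes the carriers were grouped by Gad1 or Slc32a1 and by Slc6a9. Slc32a1 serves both GABA and glycine, so these groups do not separate GABA-like from glycine-like carriers. Gad1 or Slc32a1 without Slc6a9 was found in 191 carriers, either or both of them with Slc6a9 in 139, Slc6a9 without Gad1 or Slc32a1 in 23, and only the AP-2 genes in 3. Of the 139, 32 held Slc32a1 and Slc6a9 and no other rule gene, and 31 held only Gad1 and Slc6a9. Gad2 was found in 71.7% of the 191, in 57.6% of the 139 and in 26.1% of the 23. Prox1, a homeobox transcription factor, was found in 6.28% of the 191 and 38.1% of the 139. Meis2, another homeobox factor, showed the opposite order, with 86.4% and 58.3%.

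The genes of acetylcholine release that mark starburst amacrine cells were rare. Chat, the enzyme that makes acetylcholine and that defines starburst cells, was found in 6 of the 356 carriers (1.69%), all of them uninjured, with 7 UMIs in all. Slc18a3, the vesicular acetylcholine transporter, was found in 5 carriers. Only 2 carriers held 3 or more of the 7 genes of the starburst list. Megf11, of the same list, was found in the paired carriers of all 9 samples, and the summed list was higher in carriers than in matched cells in 6 of 6 uninjured samples (0.211 against 0.120 UMIs per 10000) and 3 of 3 injured ones (0.0495 against 0.00424). Slc6a5, the neuronal glycine transporter, was found in 14.1% of the depth-matched carriers and in 1.15% of their matched cells.

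The first comparison asked whether ONC altered the share of carriers. Carriers were found in every sample, and their share was lower after ONC by less than the samples of a group differed among themselves. With all UMIs the share of carriers in the uninjured samples ran from 5.47% in uninjured 6 to 26.0% in uninjured 4, and it was 8.58%, 9.52% and 3.99% in injured 1, 2 and 3/4. The means were 12.9% ± 7.04 (SD, n = 6) and 7.36% ± 2.96 (SD, n = 3), a difference of -5.54 points (exact two-sided permutation test, p = 0.167, where the smallest possible p is 0.0238). Without uninjured 4 that difference was -2.92 points.

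At equal depth the shares came closer. With every cell thinned to 8000 UMIs the share was 3.50% to 11.8% in uninjured samples, highest again in uninjured 4, and 6.21%, 7.57% and 1.44% in the injured samples. The means were 6.64% ± 2.79 (SD, n = 6) and 5.07% ± 3.22 (SD, n = 3), a difference of -1.57 points (exact two-sided permutation test, p = 0.524). Injured 1 and 2 lay inside the uninjured range and injured 3/4 below all other samples. Without injured 3/4 the difference turned to 0.246 points, and at 15000 UMIs per cell to 0.276 points. Thinning left out 29 uninjured and 146 injured cells that were shallower than 8000 UMIs.

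**Figure D2:**
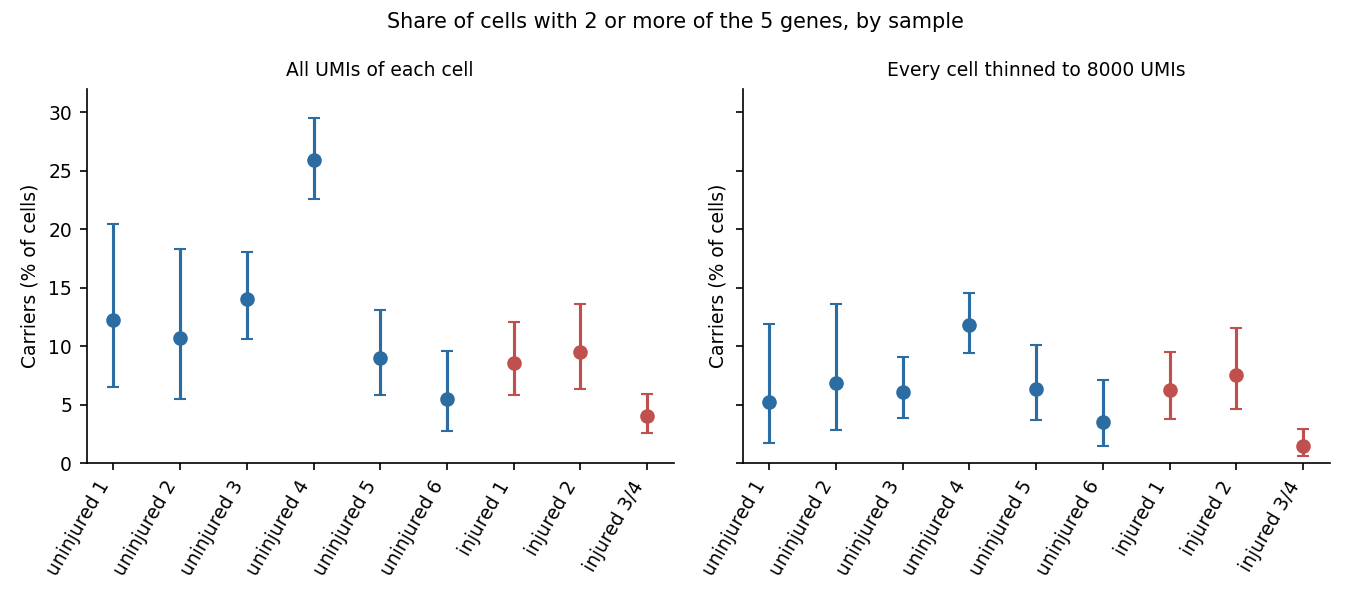
Carriers as a percentage of cells in each of the 9 samples, with all UMIs (left) and with every cell thinned to 8000 UMIs (right); bars are exact 95% binomial intervals, which cover counting error only. Uninjured 4 is highest in both panels (26.0% and 11.8%) and injured 3/4 lowest (3.99% and 1.44%).

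The second comparison asked what else sets carriers apart from other deposited RGCs of the same library. Of the 356 carriers, 347 were each paired with a cell of their library that held none of the 5 genes and lay within 20% of their total UMIs, and the 5 genes were left out of the test. Carriers had more Pdgfd, Ptprk and Gad2, among others, and less of the RGC selection markers. In edgeR 249 of 7998 genes tested passed an adjusted p of 0.05 (3.11%), 160 higher (2%) and 89 lower (1.11%) in carriers. Counting genes that moved alike in all 9 samples, 237 were higher (2.96%) and 83 lower (1.04%). The rises were large and the falls small: among genes called, alike in all 9 samples and abundant enough to name, the 12 largest rises were 9.83-fold to 54.6-fold, and the 6 largest falls were 1.60-fold to 2.01-fold.

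Pdgfd, a secreted growth factor of the PDGF family, had the largest rise. In the 6 uninjured samples its level in carriers was 22.0 to 67.2 CPM (counts-per-million, UMIs of the gene over all UMIs of the group's cells; median 42.1), and in injured 1, 2 and 3/4 it was 64.5, 69.0 and 24.5. In the matched cells the highest of the 9 samples was 1.63. All carrier samples thus lay above all matched samples, with a 54.6-fold difference (log2 5.77 ± 0.30 SE, edgeR adjusted p = 8.7e-11, higher in 9 of 9 samples).

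Cbln2, C1ql1 and Cxcl14 were also among the 12 largest rises. Cbln2, a synapse organiser of the cerebellin family, was at 43.1 to 128 CPM in uninjured carriers (median 76.9) and at 127, 56.0 and 57.2 in injured ones, against at most 9.28 in any matched sample. It rose 14.9-fold (log2 3.90 ± 0.22 SE, edgeR adjusted p = 1.9e-10, higher in 9 of 9 samples). C1ql1, a C1q-like protein that acts at synapses, was at 179 to 329 in uninjured carriers (median 234) and at 321, 269 and 101 in injured ones, against 6.37 to 35.3 and 0, 5.57 and 0 in matched cells. It rose 21.3-fold (log2 4.42 ± 0.35 SE, edgeR adjusted p = 1.0e-04, 9 of 9 samples), with no overlap between carriers and matched cells. The call of C1ql1 was lost once carriers with markers of another class were left out (edgeR adjusted p = 0.102). Cxcl14, a chemokine, rose 14.1-fold (log2 3.81, edgeR adjusted p = 2.9e-08, 9 of 9 samples), and its carrier samples ran from 18.0 in injured 3/4 to 147 in injured 2.

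The other 8 of the 12 were genes of varied function. Ptprk, a receptor tyrosine phosphatase, was at 193 to 468 CPM in uninjured carriers (median 212) and at 704, 530 and 327 in injured ones, and rose 42.1-fold (log2 SE 0.44, edgeR adjusted p = 2.3e-04, 9 of 9 samples). Prkg1, a kinase activated by cyclic GMP, was at 258 to 656 (median 389) and at 956, 993 and 558, and rose 12.4-fold (log2 3.63 ± 0.45 SE, edgeR adjusted p = 0.00348, 9 of 9 samples). Adarb2, an RNA-binding protein of the ADAR family, was at 30.6 to 313 (median 186) and at 600, 944 and 340, and rose 27.2-fold (log2 4.77 ± 0.54 SE, edgeR adjusted p = 0.00229, 9 of 9 samples). For Adarb2 all 3 injured samples lay above the uninjured ones, and for Prkg1 injured 1 and 2 did. Both calls were lost when similar libraries were summed (adjusted p 0.0825 and 0.105). Trpc4, a cation channel, Col23a1, a membrane collagen, Fgd6, an exchange factor for small GTPases, Stxbp6, a syntaxin-binding protein, and Filip1l rose 9.83-fold to 15.4-fold, each in 9 of 9 samples.

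Among the genes for the handling of GABA and glycine, 2 of 5 tested rose, 0 fell and 3 were not called, with a median log2 difference of 1.06 against -0.03 over all genes tested. Gad2 was at 28.3 to 106 CPM in uninjured carriers (median 86.3) and at 171, 116 and 39.3 in injured ones, and in matched cells at 0 to 21.2 and at 17.8, 7.42 and 16.3. It rose 5.77-fold (log2 2.53 ± 0.31 SE, edgeR adjusted p = 0.00112, higher in 9 of 9 samples), and every carrier sample lay above every matched sample. The call of Gad2 was lost when similar libraries were summed (adjusted p 0.0627). As a share of cells, Gad2 was found in 62.2% of paired carriers and 20.2% of their matched cells at median depths of 33919 and 33045 UMIs.

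Of the amacrine transcription factors, 1 of 7 tested rose, 0 fell and 6 were not called, with a median log2 difference of 0.14. Pax6, a homeobox factor of amacrine cells and RGCs alike, was at 336 to 437 CPM in uninjured carriers (median 419) and at 302, 299 and 142 in injured ones, against 306 to 344 and 99.3, 119 and 68.5 in matched cells. Its log2 level rose by 0.58 ± 0.14 SE (edgeR adjusted p = 0.0249, 9 of 9 samples), and the call was lost under 6 of 22 other settings, among them similar libraries summed and the omission of injured 2. Meis2 had the larger difference, log2 1.80 ± 0.49 SE in 8 of 9 samples, and was not called (edgeR adjusted p = 0.107).

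Genes of particular amacrine types gave 2 rises in 8 tested, C1ql1 and Npy, and 0 falls, with a median log2 difference of 0.71. Npy, a neuropeptide, rose 7.35-fold (log2 2.88 ± 0.48 SE, edgeR adjusted p = 0.0156, 9 of 9 samples). Its level in carriers ran from 5.55 to 127 CPM in uninjured samples and was 820 in injured 3/4, where matched cells stood at 324. The call of Npy was lost with similar libraries summed and without a term for the sample. Of 14 GABA and glycine receptor genes tested, 0 were called by edgeR and 2 by DESeq2, with a median of 0.22. None of the 7 starburst genes had enough UMIs to be tested.

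All 4 RGC selection markers fell in carriers, although each cell had been selected for them. Slc17a6 was at 211 to 438 CPM in uninjured carriers (median 296) and at 331, 425 and 352 in injured ones, against 393 to 601 and 592, 638 and 414 in matched cells. Its log2 level fell by 0.68 ± 0.11 SE (edgeR adjusted p = 9.3e-04, lower in 9 of 9 samples). Rbpms, an RNA-binding protein of RGCs, fell by 0.53 on the log2 scale (adjusted p = 0.00260, 8 of 9 samples in edgeR), Sncg, which encodes gamma-synuclein, fell by 0.53 (0.0272, 9 of 9 samples), and Tubb3, a neuronal tubulin, fell by 0.50 (0.00804, 9 of 9 samples). With similar libraries summed only Slc17a6 kept its call, all 4 lost it without a term for the sample or without carriers holding markers of another class, and Sncg lost it under 9 of 22 settings. Summed per cell, the 4 markers made up 0.244% of UMIs in carriers and 0.354% in matched cells, a difference of -0.110 points (exact sign-change permutation test over 9 samples, p = 0.00391, adjusted p = 0.00977 over 5 measures, lower in 9 of 9 samples).

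Other RGC genes went the same way. Of 16 RGC identity genes tested, 7 fell, 0 rose and 9 were not called, and all 16 had a negative difference, 15 of 16 with DESeq2, with a median log2 of -0.41. Nefl, a neurofilament subunit, was at 1236 to 1938 CPM in uninjured carriers (median 1731) and at 787, 905 and 811 in injured ones, against 1955 to 2442 and 1317, 1470 and 1854 in matched cells. Its log2 level fell by 0.64 ± 0.10 SE (edgeR adjusted p = 6.8e-04, 9 of 9 samples). Nefm, its partner subunit, fell by 0.72 (edgeR adjusted p = 0.00133, 9 of 9 samples), and Thy1, the surface protein used for the isolation, fell by 0.33 (edgeR adjusted p = 0.0417, 9 of 9 samples). The call of Thy1 was lost under 14 of 22 other settings, that of Nrn1 under 13 of 22, that of Stmn2 under 8 of 22 and that of Pou4f3 under 5 of 19. Nefl and Nefm lost their calls without a term for the sample and without carriers holding markers of another class. The list had 5 falls with upper-quartile factors and 4 with library totals.

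The largest fall belonged to Sema3e, a secreted semaphorin. It was at 48.6 to 105 CPM in uninjured carriers (median 74.8) and at 33.5, 22.4 and 39.3 in injured ones, against 109 to 191 and 80.2, 72.4 and 65.2 in matched cells. The log2 level fell by 1.01 ± 0.13 SE (edgeR adjusted p = 6.7e-05, 9 of 9 samples), without overlap within either condition. The call of Sema3e was lost without a term for the sample and without carriers holding markers of another class. Lin28b, which blocks let-7 maturation, Mt3, a metallothionein, and Pmp22, a myelin protein, fell by 0.74, 0.71 and 0.68 on the log2 scale, each in 9 of 9 samples. Lin28b lost its call without a term for the sample and with equal numbers of carriers. The calls of Mt3 and Pmp22 were lost under 7 of 22 and 7 of 21 other settings, each with similar libraries summed, and with single samples left out: uninjured 2, uninjured 6 or injured 1 for Mt3, and uninjured 3 or injured 2 for Pmp22.

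Markers of other retinal classes were mostly too rare to test. None of 12 rod, 8 cone, 5 astrocyte and 7 vascular markers entered the test. Of 3 bipolar markers tested, Prkca, a protein kinase C that is strong in rod bipolar cells, rose 2.08-fold (log2 1.06 ± 0.13 SE, edgeR adjusted p = 1.9e-05, 9 of 9 samples), while Vsx1 and Grm6, which define bipolar cells, had 0 UMIs in the paired carriers of every sample. The call of Prkca was lost once carriers with markers of another class were left out (edgeR adjusted p = 0.653). The summed bipolar list was 3.38 ± 1.51 UMIs per 10000 in uninjured carriers and 2.32 ± 0.257 in their matched cells (SD, n = 6, higher in 5 of 6). In injured samples it was 3.15 ± 0.652 in carriers and 1.11 ± 0.312 in matched cells (SD, n = 3), higher in 3 of 3 without overlap. Of 3 Muller glia markers tested, Dkk3, a secreted protein that many neurons also make, rose 2.76-fold (log2 1.46 ± 0.31 SE, edgeR adjusted p = 0.0370, 9 of 9 samples). The summed Muller list was 3.18 ± 0.263 UMIs per 10000 in uninjured carriers and 2.01 ± 0.593 in matched cells (SD, n = 6), with Dkk3 as its most abundant gene in 5 of 6 samples, and 5.47 against 4.97 in injured ones, higher in 2 of 3. The call of Dkk3 was lost under 8 of 21 other settings, among them similar libraries summed and the omission of any of uninjured 2, 3, 4, 5 and 6. The part of these classes in the other differences was not tested.

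Carriers also held more kinds of transcripts than cells of similar depth. Genes per cell were 6774 ± 930 in carriers and 6447 ± 881 in matched cells (SD, n = 9), a difference of 327 (exact sign-change permutation test, p = 0.00391, the smallest possible, adjusted p = 0.00977, higher in 9 of 9 samples). The difference was 758 in injured 1 and 482.5 in uninjured 4, where carriers were deeper than their matched cells (medians of 27851.5 against 24121 and 41159 against 37264.5 UMIs). It was 472 in uninjured 1 and 416.5 in uninjured 2, where depths were close (33183.5 against 33567.5 and 37479.5 against 37456). Depths were also close in uninjured 3, uninjured 5, uninjured 6, injured 2 and injured 3/4, with differences of 203.5, 245.5, 9, 293 and 63. The difference was 275 over all samples with pairs within 10% of total UMIs. The shares of mitochondrial, ribosomal protein and Malat1 UMIs differed by -0.283, -0.282 and -0.949 points, and none passed (adjusted p of 0.303, 0.457 and 0.303 in exact tests). Malat1, a nuclear RNA, was lower in the carriers of all 3 injured samples, by 2.51 to 3.82 points, and in 2 of the 6 uninjured samples.

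The count of 249 moved with single libraries: it was 154 without uninjured 3, 157 without uninjured 5 and 164 without injured 2. It was 931 against all cells without the 5 genes and 754 with no filter on low counts. With similar libraries summed it was 117 (97 higher and 20 lower), and without a term for the sample 64 (0 lower). It was 86 with 10 carriers from each sample. It was 12 (0 lower) once carriers with 3 or more markers of another class were left out, which kept 77 carriers in 6 samples. Such markers were held by 78.1% of paired carriers and also by 64.6% of their matched cells.

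**Figure D3:**
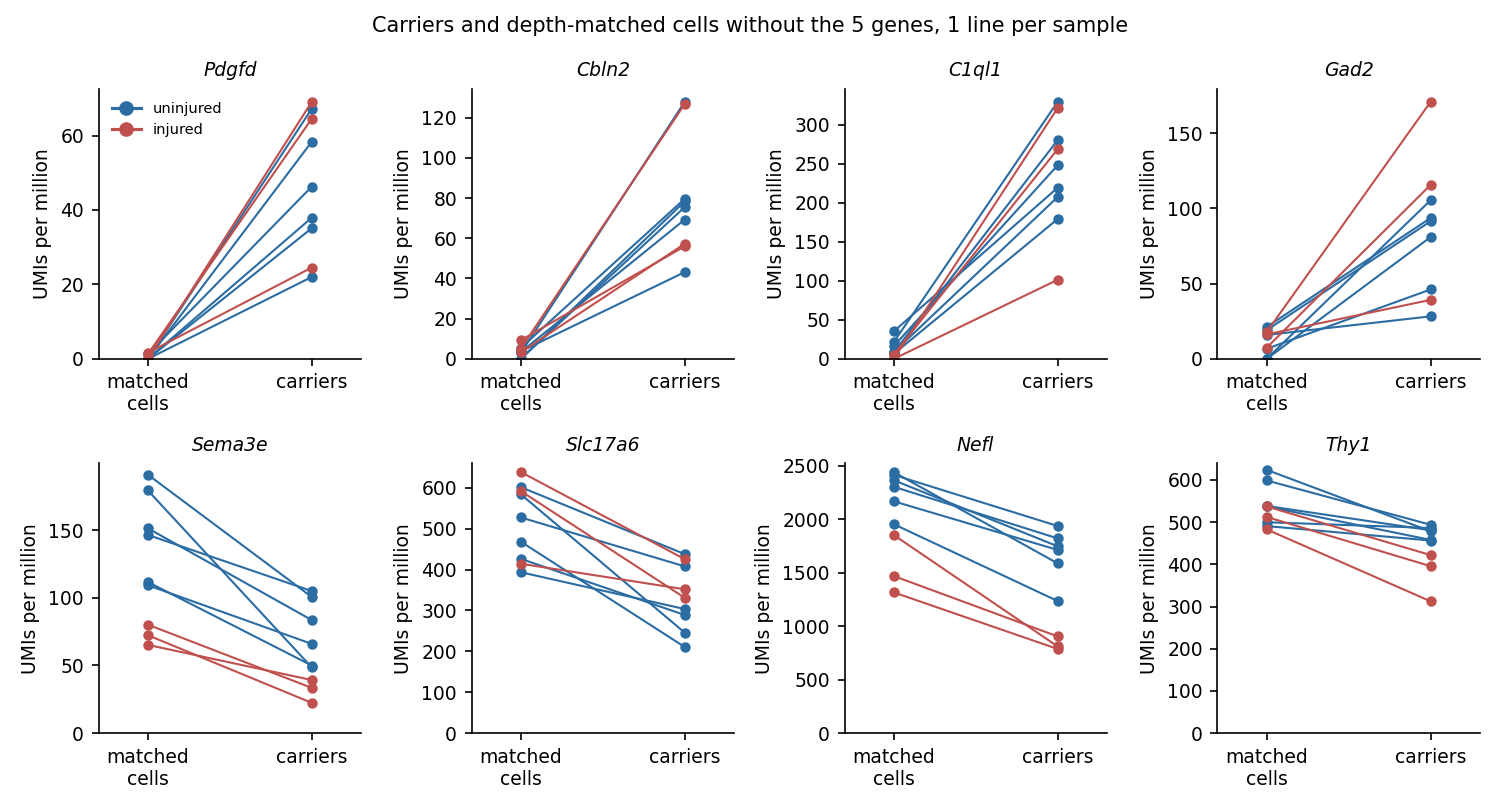
Level of 8 genes (y axis, CPM) in the matched cells and the carriers of each of the 9 samples, 1 line per sample, blue uninjured and red injured. Pdgfd, Cbln2, C1ql1 and Gad2 are higher in the carriers of all 9 samples, and Sema3e, Slc17a6, Nefl and Thy1 lower in all 9.

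Injured 1 and 2 hold both male and female cells, which gives a measurement of how many barcodes contain RNA of both. A cell from 1 animal should hold either Xist or Y-linked transcripts. Both were found in 20 of the 55 carriers of these samples (36.4%, exact 95% interval 23.8 to 50.4) and in 7 of 394 cells without the 5 genes (1.78%, 0.717 to 3.63). Among 54 such cells matched to the carriers in depth it was 1 (1.85%). In injured 1 the count was 9 of 29 carriers (31.0%) and in injured 2 it was 11 of 26 (42.3%).

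The share followed the number of rule genes. It was 1.23% of the 162 cells with 1 gene, 13.6% of the 22 carriers with 2 genes and 51.5% of the 33 carriers with 3 or more genes, at median depths of 17770, 23010.5 and 26196 UMIs. Among carriers with 10 or more UMIs of the 5 genes it was 14 of 24 (58.3%), and among those with fewer 6 of 31 (19.4%). Of 8 carriers with 2 genes at 1 UMI each, 0 held both, which allows a share of up to 36.9% (exact interval). The barcodes of these carriers thus hold RNA of male and of female cells more often than matched cells do, and whether it came from several cells or from free RNA was not tested. A mixture of cells from animals of the same sex cannot be seen in this way, and the uninjured samples and injured 3/4 hold too few Xist UMIs for the measurement.

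Without the carriers that held both Xist and Y-linked UMIs, 335 carriers remained, and 159 genes were called against matched cells, 149 of them among the 249.

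**Figure D4:**
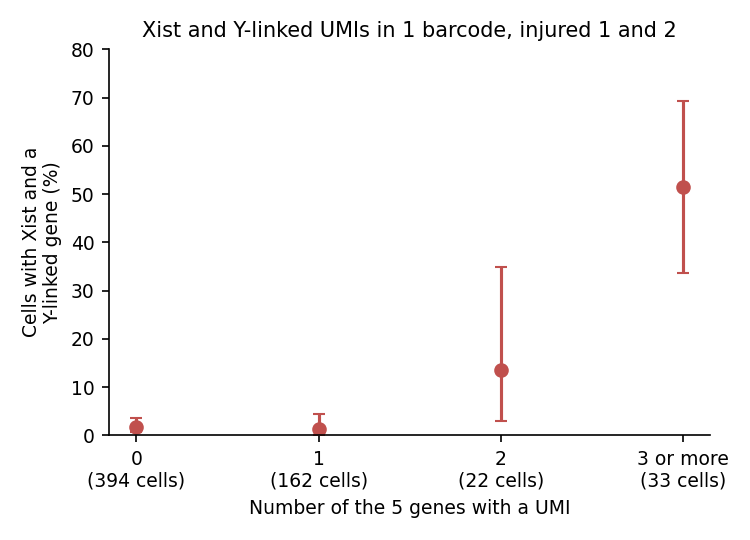
Percentage of cells of injured 1 and 2 that hold both Xist and a Y-linked UMI (y axis), by the number of the 5 genes in the cell (x axis); bars are exact 95% binomial intervals for counting error only. The share is 1.78% with 0 genes, 1.23% with 1, 13.6% with 2 and 51.5% with 3 or more.

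The third comparison asked how carriers differ after ONC, the question the study puts to RGCs. All axon injury genes tested rose in carriers after ONC, to a summed level below that of injured matched cells (54.2 ± 8.11 against 71.1 ± 1.89 UMIs per 10000, SD, n = 3, lower in 3 of 3 samples), while Gad2 was not called. In edgeR 2056 of 8979 genes passed (22.9%), 1059 higher (11.8%) and 997 lower (11.1%) after ONC. The conditions did not overlap for 1092 genes that were higher (12.2%) and 1135 that were lower (12.6%).

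All 14 axon injury genes tested rose (median log2 4.59, against -0.01 over all genes tested, and the same with genes at 0 set to their lower bound). Sprr1a, a regeneration-associated protein, was at 595, 1092 and 664 CPM in injured 1, 2 and 3/4 and at 0 in all uninjured carriers. It was at least 2903-fold higher (floor of 3 counts over the group, edgeR adjusted p = 2.3e-08, higher in 3 of 3 injured samples). Ecel1, an endopeptidase of injured neurons, was at 647, 814 and 622 and at 0, at least 2660-fold higher by the same floor (edgeR adjusted p = 5.6e-09, 3 of 3 samples). Atf3, a transcription factor of the injury response, was at 580, 565 and 710 against 0 to 4.07 (log2 7.96 ± 0.37 SE, edgeR adjusted p = 8.9e-10), and Sox11, a factor of axon growth, was at 897, 864 and 892 against 10.2 to 30.1 (log2 5.34 ± 0.23 SE, edgeR adjusted p = 3.1e-10). No injured sample overlapped the uninjured range for any of these 4 genes.

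Beyond that list the largest differences were those of the reporter mCherry and of Ucn and Gm29374, all at 0 in uninjured carriers. mCherry was at 145, 470 and 901 CPM in injured 1, 2 and 3/4 (at least 1773-fold), and Ucn, the neuropeptide urocortin, was at 107, 33.6 and 267 (at least 528-fold). The call of mCherry was lost with no filter on low counts or over samples 1 to 3 without a block, and that of Ucn also without injured 1. Gm29374, a predicted gene, was at 69.7, 82.1 and 83.4 (at least 300-fold, edgeR adjusted p = 1.8e-07, 3 of 3 samples).

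The largest falls included a hormone receptor and a phosphatase inhibitor. Prlr, the prolactin receptor, was at 2.15 to 52.9 CPM in uninjured carriers (median 16.5) and at 0 in injured ones (edgeR adjusted p = 0.0338, lower in 3 of 3 samples). No fold is given, since the lowest uninjured sample lay close to the floor of 1.46 CPM that 3 counts set for the injured carriers. Its call was lost under 7 of 14 other settings, among them the omission of each injured sample. Ppp1r17, an inhibitor of protein phosphatases, was at 18.6 to 90.2 (median 46.9) and at 0, 1.87 and 0 from 1 UMI in all (edgeR adjusted p = 2.2e-04, lower in 3 of 3 samples). The predicted genes Gm43305 and Gm49678 were at 0 in injured carriers, at least 16.1-fold and 17.3-fold lower, and 2600014E21Rik was at 23.1 to 87.3 against 1.11, 0 and 0.

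Of the genes that handle GABA and glycine 1 of 6 was higher, 1 lower and 4 not called, with log2 differences from -1.22 to 0.77 (median -0.20), where 22.9% of all genes tested were called. Gad2 was at 28.2 to 133 CPM in uninjured carriers (median 91.3) and at 158, 116 and 39.3 in injured ones, with a log2 difference of 0.34 ± 0.42 SE that was not called (edgeR adjusted p = 0.613, 2 of 3 injured samples above the uninjured median). Abat, which breaks down GABA, fell by 1.15 on the log2 scale (edgeR adjusted p = 0.00181, 3 of 3 samples). Slc38a1, a glutamine transporter, rose by 0.77 (edgeR adjusted p = 0.0126, with injured and uninjured samples overlapping), and its call was lost under 5 of 21 other settings, among them the omission of injured 1 or injured 3/4 and equal numbers of carriers.

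Of the amacrine transcription factors 0 of 11 rose, 2 fell and 9 were not called (median log2 -0.16). Pax6 was at 370 to 464 CPM in uninjured carriers and at 283, 299 and 142 in injured ones, and fell by 0.74 on the log2 scale (edgeR adjusted p = 0.0250, lower in 3 of 3 samples). The fall of Pax6 lost its call under 5 of 21 other settings: without injured 3/4, with similar libraries summed, with equal numbers of carriers, with 3 or more of the 5 genes and without carriers holding markers of another class. Nfia, a nuclear factor I gene, was the other fall (log2 -2.21, edgeR adjusted p = 0.0329), and 10 of 20 settings lost its call, among them the omission of uninjured 5, uninjured 6, injured 2 or injured 3/4. Of 15 GABA and glycine receptor genes 4 fell and 0 rose (median log2 -0.63). The falls were 8 with DESeq2, 7 with upper-quartile factors and 5 with library totals, and that of Gabra4, a GABA-A receptor subunit, lost its call without injured 1 and without injured 3/4.

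Among genes of amacrine types 2 of 12 rose and 2 fell (median log2 -0.32). Calb2, the calcium-binding protein calretinin, which RGCs also make, was at 2417 to 5777 CPM in uninjured carriers (median 5029) and at 336, 382 and 321 in injured ones. Its log2 level fell by 3.69 ± 0.34 SE (edgeR adjusted p = 1.5e-06, 3 of 3 samples). Crh, the neuropeptide corticotropin-releasing hormone, was at 0 to 1.76 and at 25.4, 56.0 and 60.5, and rose by log2 5.47 ± 0.55 SE (edgeR adjusted p = 3.4e-06, 3 of 3 samples). No samples overlapped for either gene.

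RGC identity genes fell more often than they rose, with 8 of 16 lower, 2 higher and 6 not called (median log2 -1.20). Chrna6, a nicotinic receptor subunit, was at 131 to 186 CPM in uninjured carriers (median 175) and at 11.1, 1.87 and 4.91 in injured ones, and fell by 4.63 on the log2 scale (edgeR adjusted p = 7.8e-08, 3 of 3 samples). Rbpms2, an RNA-binding protein of RGCs, fell by 4.05 (edgeR adjusted p = 4.0e-07, 3 of 3 samples). Gap43, a protein of growing axons, was at 259 to 434 (median 339) and at 1688, 2010 and 1799, and rose by 2.44 (edgeR adjusted p = 3.5e-07, 3 of 3 samples). The conditions did not overlap for these 3 genes.

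Marker genes of other classes moved too: Gng13 and Grik1 of the bipolar list fell, and Clu and Glul of the Muller list rose while Dkk3 fell. The call of Glul was lost under 6 of 20 other settings, among them the omission of injured 2 or injured 3/4. Those of Grik1, Dkk3 and Clu were lost under 3, 2 and 1 of 21. The summed Muller list was 3.18 ± 0.263 UMIs per 10000 in paired uninjured carriers (SD, n = 6) and 5.47 ± 1.76 in injured ones (SD, n = 3). Their matched cells moved likewise, from 2.01 ± 0.593 to 4.97 ± 0.552. The part of that difference in the other calls was not tested. The count of 2056 was 1361 without injured 1 and 1338 without injured 3/4. It was 1165 in the 195 carriers with 3 or more genes and 1200 with 10 carriers from each sample. It was 489 in the 77 carriers without 3 or more markers of another class.

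The fourth comparison asked whether the difference between carriers and their matched cells was itself different after ONC. It was for Mgarp, Slc12a5, Gria3 and Hlf, among others, which were far lower in injured than in uninjured matched cells and less so in carriers. In edgeR 190 of 9653 genes passed the test of that difference (1.97%), 149 with a higher (1.54%) and 41 with a lower (0.425%) carrier difference in injured samples. Other values moved beside these calls: Dkk3 of the Muller list was called higher (log2 2.54, edgeR adjusted p = 0.00200, carriers higher in 3 of 3 injured samples), and so were Chrnb3 and Chrna6, nicotinic receptor subunits of the RGC identity list (log2 2.14 and 3.95). The calls of Chrnb3 and Chrna6 were both lost without injured 1 and without injured 3/4. Those of Dkk3, Chrnb3 and Chrna6 were all lost without carriers holding Xist and Y-linked UMIs, and without carriers holding markers of another class. In the 3 injured samples the ribosomal protein share of carriers minus that of matched cells was -0.666, -0.808 and -2.44 points, Malat1 was lower too, and the summed bipolar list was higher. Their part in these calls was not tested.

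Mgarp, a mitochondrial transport protein, stood at 692 to 1597 CPM in uninjured matched cells and at 838 to 1871 in uninjured carriers, so both overlapped. After ONC matched cells were at 29.3, 16.7 and 35.9 and carriers at 455, 509 and 193, with no overlap (log2 of the difference between differences 3.39 ± 0.31 SE, edgeR adjusted p = 1.7e-05, carriers higher in 3 of 3 injured samples). Slc12a5, the potassium-chloride cotransporter KCC2 of mature neurons, was at 19.1, 27.8 and 6.52 in injured matched cells and at 171, 114 and 57.2 in injured carriers, against medians of 334 and 384 in uninjured ones (log2 2.56 ± 0.29 SE, edgeR adjusted p = 2.1e-05, 3 of 3 samples). Gria3, an AMPA receptor subunit, was at 16.6, 29.7 and 27.7 and at 237, 174 and 116 (log2 2.58 ± 0.28 SE, edgeR adjusted p = 1.7e-05, 3 of 3 samples). Hlf, a transcription factor of the PAR bZIP family, had 19.1, 14.8 and 19.6 and 220, 127 and 86.7 (log2 2.57 ± 0.28 SE, edgeR adjusted p = 1.7e-05, 3 of 3 samples).

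C1ql2, a C1q-like synaptic protein, went the other way. In uninjured samples carriers held 36.1 to 140 CPM (median 92.5) and matched cells 0 to 4.09. After ONC both were high, with 164, 205 and 222 in carriers and 178, 134 and 225 in matched cells, which overlap (log2 -4.79 ± 0.35 SE, edgeR adjusted p = 3.4e-07). The calls of C1ql2, Gria3 and Gabra2 were lost once carriers with markers of another class were left out (adjusted p 0.523, 0.519 and 0.0950).

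Genes of GABA and glycine signalling were among the positive calls. Slc6a11, the GABA transporter GAT-3, was at 7.64, 9.28 and 0 in injured matched cells and at 154, 93.3 and 94.9 in injured carriers, while the uninjured medians were 83.9 and 112 and their ranges overlapped (log2 3.87 ± 0.47 SE, edgeR adjusted p = 1.3e-04, 3 of 3 injured samples). In that list 1 of 6 genes was higher and 0 lower (median log2 0.70, against -0.02 over all genes tested). Glra3, a glycine receptor subunit, had a log2 value of 3.15 (edgeR adjusted p = 0.00174, 3 of 3 injured samples) and Gabra2, a GABA-A receptor subunit, 1.49 (edgeR adjusted p = 4.8e-04, 3 of 3 injured samples), the 2 calls among 16 receptor genes. Pax6 was the 1 call among 10 amacrine transcription factors (log2 0.97, edgeR adjusted p = 0.00408, 3 of 3 injured samples). The calls of Pax6 and Glra3 were lost without injured 1, without carriers holding Xist and Y-linked UMIs and without carriers holding markers of another class. That of Pax6 was also lost with 3 or more of the 5 genes, and that of Glra3 against unmatched cells and with equal numbers of carriers.

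Axon injury genes leaned the other way, with 0 of 14 higher, 2 lower and 12 not called (median log2 -0.47). Atf3 was at 581, 565 and 710 CPM in injured carriers and at 956, 826 and 1119 in their matched cells, which do not overlap (log2 -1.89 ± 0.40 SE, edgeR adjusted p = 0.0178, lower in 3 of 3 injured samples), from 34 and 13 UMIs in all uninjured carriers and matched cells. Its call was lost under 6 of 21 other settings: without uninjured 4, without injured 1, with 3 or more of the 5 genes, with equal numbers of carriers, and without carriers holding Xist and Y-linked UMIs or markers of another class. Ddit3, a factor of the stress response, was the other call (log2 -0.81, edgeR adjusted p = 0.0421), and 14 of 21 other settings lost it.

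Without the carriers that hold both Xist and Y-linked UMIs 41 genes passed, 40 of them among the 190, and all 190 kept their sign. That setting also leaves fewer injured carriers, and the parts of number and of kind were not separated. The count was 64 without injured 1, 101 without injured 3/4, 103 without uninjured 4 and 121 without uninjured 3, and 94 in carriers with 3 or more genes. It was 355 with no filter on low counts, 76 with 10 carriers from each sample and 18 without carriers that held markers of another class.

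**Figure D5:**
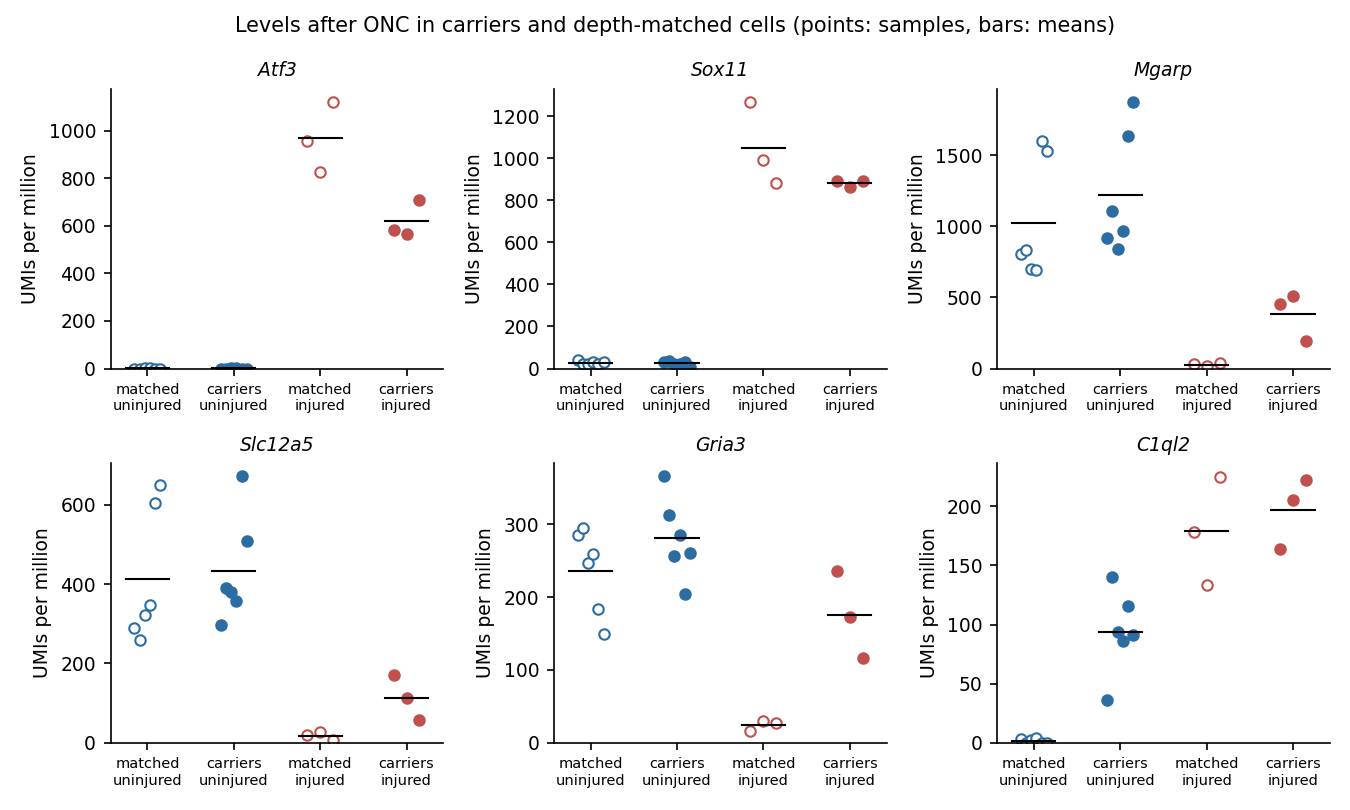
Level of 6 genes (y axis, CPM) in matched cells (open) and carriers (filled) of the uninjured (blue) and injured (red) samples; points are samples and bars are means. Atf3 and Sox11 rise after ONC in both, Mgarp, Slc12a5 and Gria3 are lower in injured matched cells than in injured carriers, and C1ql2 is at most 4.09 CPM in uninjured matched cells alone.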

How the data were processed

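The values are UMI counts per gene and cell, deposited by the authors after alignment to mm39 and counting with Cell Ranger 7.0.1 according to the submitters' processing notes. The authors kept cells that held Rbpms, Slc17a6, Sncg and Tubb3 and that passed limits of 500 genes or more, no more than 20% UMIs of mitochondrial genes and no more than 150000 UMIs in all. No doublet caller was run, and that last limit was applied before deposit. Of 34254 deposited genes the name Sept4 was read as Septin4. Barcodes of injured 4 that are also in injured 3 were counted once, which left 2871 of 3292 cells in 9 samples.

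Counts were summed over the carriers, and over their matched cells, of each sample. Genes were tested with edgeR 4.0.16 (quasi-likelihood, filterByExpr, TMM factors, a term for the sample where carriers met matched cells) in R 4.3.3 with limma 3.58.1, and the 5 rule genes were not tested. Adjusted p (Benjamini-Hochberg over all genes of a fit) at or under 0.05 was called. These p-values measure only the spread between samples. Shares and cell measures were tested by exact two-sided permutation over samples. Python 3.11.15, numpy 2.4.6, scipy 1.17.1, pandas 2.3.3 and matplotlib 3.10.9 were used. The fits were tested on simulated data.

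Genes were named as largest if called, at a mean log2 CPM of 4 or more, and alike in all 9 samples or, between conditions, without overlap. Genes of 21 lists were also named. The carriers and the lists were chosen with earlier results of these data known. Thinning drew UMIs at a fixed seed. Intervals are exact Clopper-Pearson 95% intervals, and these and the floors of 3 counts over a group cover counting error only.

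Other settings were planned before any fit, with those earlier results known. They were a fit with DESeq2 1.42.0, scaling by upper quartiles or by library totals, no filter on low counts, 3 or more of the 5 genes, at most 10% mitochondrial UMIs, carriers with 3 or more markers of another class left out, similar libraries summed, pairs within 10% of total UMIs, unmatched cells, no sample term, samples 1 to 3 with and without a replicate block, thinning to 5000 or 15000 UMIs or with another seed, and each sample left out. Leaving out carriers with Xist and Y-linked UMIs and taking equal numbers of carriers were chosen after seeing the data.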

Additional observations from a re-analysis of the deposited data

Results flagged for a closer look

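Of 28 groups of samples checked for a value far from the others, 4 held one, and chance gives such a value in about 1 in 20 groups. In uninjured 6 the mitochondrial share was lower in carriers than in matched cells by the widest margin of the uninjured samples, -1.675 points, where uninjured 5 had -0.564. In uninjured 5 the starburst list stood at 0.5277 UMIs per 10000 in carriers and the vascular list at 0.2639, each far above the other uninjured samples, which had at most 0.223 and 0.0440. In uninjured 1 the sex-linked list stood at 2.722 against at most 2.36 in the other uninjured samples. Uninjured 5 and 1 gave 24 and 10 paired carriers, and the causes were not tested.

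For 5 genes the difference between carriers and matched cells (log2) was itself different in injured and uninjured samples by the edgeR test of that difference. It was -4.787 for C1ql2 (adjusted p 3.4e-07), 2.569 for Hlf, 2.576 for Gria3 and 3.393 for Mgarp (adjusted p 1.7e-05 each), and 2.559 for Slc12a5 (adjusted p 2.1e-05). In the 3 injured samples carriers were higher than matched cells in 3 of 3 for the latter 4 genes. The causes were not tested.

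The reporter mCherry, which the comparisons of RGC and amacrine genes do not use, had UMIs in 13.79% of carriers of injured 1, 23.08% of injured 2 and 78.26% of injured 3/4, and in 0 uninjured carriers. In cells without the 5 genes the shares were 8.53%, 14.2% and 81.9%. The labels name no reporter. The study's text describes AAV2 vectors expressing mCherry, injected into the eye 2 weeks before ONC. The source of the mCherry UMIs in these libraries was not tested.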

How the results depend on the processing

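The difference in the share of carriers at 8000 UMIs, -1.57 points, turned to 0.276 at 15000 UMIs per cell. With each sample left out in turn it ran from -2.82 to 0.246, the latter without injured 3/4. With the replicate block over samples 1 to 3, in which sample numbers do not pair samples, it was -1.005 (exact p = 1).

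The count of 249 genes between carriers and matched cells was 754 with no filter on low counts and 931 against unmatched cells. It was 117 (20 lower) over 5 samples with similar libraries summed and 64 (0 lower) without a term for the sample. It was 12 (0 lower) once carriers with markers of another class were left out, which kept 77 carriers in 6 samples. It was 159 without carriers holding Xist and Y-linked UMIs and 86 with equal numbers of carriers. With each sample left out it ran from 154 to 299.

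The count of 2056 genes between injured and uninjured carriers was 1165 with 3 or more of the 5 genes, 489 without carriers holding markers of another class and 1200 with equal numbers of carriers, which all test fewer carriers. With each sample left out it ran from 1338 to 2022. With the replicate block over samples 1 to 3 it was 1696, and 1614 without it.

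The count of 190 genes for the difference between differences was 355 with no filter, 94 with 3 or more of the 5 genes, 18 without carriers holding markers of another class, 41 without carriers holding Xist and Y-linked UMIs and 76 with equal numbers of carriers. With each sample left out it ran from 64 to 223.

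For called genes named in the text, 562 of 676 values between carriers and matched cells kept their call and 114 lost it. After ONC 815 of 912 kept it and 97 lost it. For the difference between differences 254 of 315 kept it and 61 lost it. No value changed sign (0 in each). Apart from fewer carriers or samples, the cause of these movements was not tested.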

Other observations

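The share of carriers did not follow depth evenly. Of uninjured cells under 10000 UMIs 14.8% were carriers (8 of 54), and of those from 10000 to 20000 UMIs 4.87%. In injured cells these shares were 1.39% (4 of 287) and 3.06% (18 of 589). From 20000 to 40000 UMIs 13.6% of uninjured cells (112 of 822) and 18.4% of injured ones (49 of 266) were carriers. At 40000 UMIs and above 33.3% of uninjured cells were carriers (139 of 417) and 15.2% of injured ones (7 of 46).

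Carriers with Slc6a9 beside Gad1 or Slc32a1 held Dab1, an adaptor protein of reelin signalling, in 73.8% of uninjured cells, against 50% of uninjured carriers without Slc6a9. In injured carriers the shares were 40.6% and 40%. Immediate early genes had positive differences between carriers and matched cells for all 4 genes tested, with a median log2 of 0.53, and 0 were called. Some libraries resembled each other more than others: the distance over counting noise was 1.82 for uninjured 1 and 2, 1.87 for 3 and 4 and 1.47 for 5 and 6, but 4.04 for 2 and 3 and 20.6 for 4 and 5. For injured 1 and 2 it was 2.28, and for injured 1 and 3 it was 4.87.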
